A study of Mus musculus with 6 samples.

Results

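The Zfp genes described here are 166 mouse genes whose symbol is Zfp followed by a number and whose mean level over all 6 libraries of the series was at least 10 CPM, a count scaled to the total of its library. The count table held 18660 rows, 346 of them with such a symbol. Of these, 176 were under the level threshold and 4 were left out by name (Zfp36, Zfp42, Zfp57 and Zfp352). The level that chose the members was averaged over treated and untreated libraries together, so it is a description and was not tested. The RNA was poly(A) RNA of mouse 2-cell embryos, counted in 3 untreated libraries, called controls, with 0 µM arsenite by their labels, and in 3 arsenite libraries, for which the embryo culture medium G1-PLUS held 5 µM sodium arsenite, a trivalent arsenic compound. The sources used here give neither strain nor number of embryos, nor whether replicates came from separate cultures, so a p-value here reflects the spread of these 6 libraries, part or all of which may be technical. In whole embryos, fewer cells of a type and less RNA per cell cannot be told apart.

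Most Zfp proteins bind DNA, and some bind RNA, through fingers in which a zinc ion is held between paired cysteines and histidines. In the largest class a KRAB domain at the amino end recruits Trim28, a scaffold for the histone methyltransferase Setdb1 and for heterochromatin proteins, and so silences transposons, imprinted regions and some genes in early embryos. Other Zfp genes, grouped by nothing but the finger, encode transcription activators, ubiquitin and SUMO ligases, ribosome assembly factors and splicing factors.

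All 166 members had a transcript in GENCODE M21, from whose translation the domains were read, except that Zfp939, named here after its values were seen, had none and is counted among those without a match. A KRAB profile found the domain in 106 members, with a median of 12 fingers, and not in 60, with a median of 6.5 fingers. Zfp142 had the most fingers, 36, and 6 members had no finger of the searched form, among them Zfp703 and Zfp750. Members lay on 20 chromosomes, 33 of them on chromosome 7, 25 on chromosome 17 and 12 on chromosome 13.

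Of the 166 members 141 had a promoter window in the RefSeq table for GRCm38.p6. The windows below are bases before the start, up to 250 of them, of 2 called members that rose and 2 that fell. Zfp277 and Zfp58 had the smallest p of the rises, and Zfp292 had the smallest p of the falls. A called fall with a smaller p than that of Zfp239 is not shown, so the falls are examples. The Zfp292 window has 215 bases, since 35 bases of the table's window lay inside the gene's span and were left out. Each is written 5′ to 3′ on the gene's own strand, in lower case. Capitals mark letters found by a search of both strands for GGGCGG (the GC box), CCAAT (the CCAAT box), TATAAA (the TATA box) and TGACGTCA (the cAMP response element). The search also took TGACNNNGC (the core of the antioxidant response element), GAANNTTC (paired heat shock repeats) and ACTACAA (a part of a site bound by ZFP143). A hit on the other strand appears as its reverse complement. The windows are chr12:40445791-40446040 (minus strand) for Zfp277, chr13:67500523-67500772 (minus strand) for Zfp58, chr4:34882984-34883198 (minus strand) for Zfp292 and chr6:117861774-117862023 (plus strand) for Zfp239.
Zfp277: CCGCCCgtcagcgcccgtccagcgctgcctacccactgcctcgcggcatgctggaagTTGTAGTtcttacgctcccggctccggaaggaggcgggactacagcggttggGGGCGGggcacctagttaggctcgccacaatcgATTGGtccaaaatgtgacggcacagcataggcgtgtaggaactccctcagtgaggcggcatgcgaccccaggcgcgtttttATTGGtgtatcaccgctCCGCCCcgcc
Zfp58: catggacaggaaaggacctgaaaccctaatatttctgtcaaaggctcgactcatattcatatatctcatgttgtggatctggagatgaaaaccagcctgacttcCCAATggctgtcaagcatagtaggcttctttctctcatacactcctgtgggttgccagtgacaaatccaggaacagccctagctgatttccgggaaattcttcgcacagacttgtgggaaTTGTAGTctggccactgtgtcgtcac
Zfp292: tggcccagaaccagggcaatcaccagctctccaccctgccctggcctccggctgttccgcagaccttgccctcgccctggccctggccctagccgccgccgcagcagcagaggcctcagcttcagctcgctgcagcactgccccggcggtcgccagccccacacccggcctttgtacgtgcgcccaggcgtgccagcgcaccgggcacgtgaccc
Zfp239: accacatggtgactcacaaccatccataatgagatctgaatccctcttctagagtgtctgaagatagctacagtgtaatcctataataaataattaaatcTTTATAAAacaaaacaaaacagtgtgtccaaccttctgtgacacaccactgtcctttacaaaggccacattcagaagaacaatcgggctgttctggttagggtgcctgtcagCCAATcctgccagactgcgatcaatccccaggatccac
The Zfp277 window held GC boxes, CCAAT boxes and ACTACAA, and the Zfp58 window held a CCAAT box and ACTACAA. The letters of none of the motifs searched were in the printed Zfp292 window. The Zfp239 window held a CCAAT box and overlapping TATAAA matches on both strands. The CG dinucleotide occurred 24 times in the Zfp277 window and 17 times in that of Zfp292, but 4 and 2 times in those of Zfp58 and Zfp239.

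Over all members with a window CCAAT was present in 77 of 141 (54.6%), against 34.5% of the 27025 promoters of the table, each taken as its 250 bases upstream. The GC box was in 46.8% of member windows and in 32.9% of all, while TATAAA was in 3.55% and 13.0%. The stress elements stood close to the general share, at 12.8% and 10.1% for the antioxidant core, 7.80% and 6.78% for the heat shock repeats and 1.42% and 1.62% for the cAMP element. ACTACAA was in 6 member windows (4.26%) and in 2.98% of all. Among the 9 members called higher with a window it was in 2, and among the 5 called lower in 1. The table holds promoters of genes at any level, while members were at 10 CPM or more, so the shares were not compared at the same level. A match is only a string of letters in this window and was not tested as a binding site.

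Library totals lay between 7758507 and 8519265 counts, so 3 counts amounted to 0.352 to 0.387 CPM. Of the marker lists read as a check of the labels, the summed level of 7 genes of the 2-cell stage was 662 to 865 CPM in controls and 1339.6 to 3403 CPM with arsenite, and that of 6 oocyte genes was 508 to 1217 and 2238 to 3085 CPM. Most of the oocyte sum came from Bmp15 and Oosp1, while Zp3 was lower in every arsenite library (86.5 and 53.1 CPM on average). Markers of cumulus and granulosa cells, of which 7 of 10 were in the table, summed to 2.77 to 6.83 CPM in controls and 11.6 to 16.1 CPM with arsenite, and their steroid enzyme Cyp11a1 had 0 counts in controls and 62 with arsenite. Of that list Star, Has2, Ptgs2 and Foxl2 had fewer counts with arsenite than in controls (59, 0, 6 and 12 against 72, 3, 8 and 16). Markers of blastocyst lineages, 5 of 6 in the table, summed to 6.62 to 15.6 and 27.3 to 75.4 CPM. All 4 sums were higher with arsenite without overlap, as were some members below, and their part in the results was not tested.

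With arsenite 11 of the 166 members rose and 8 fell (quasi-likelihood test of edgeR, p adjusted by Benjamini-Hochberg over 12582 genes, threshold 0.05), and 147 did not pass. This is 11.4% of members, against 16.7% of all genes tested, 9.43% higher and 7.26% lower. Among the 7705 other tested genes at the same level threshold 23.3% were called, 13.0% higher and 10.3% lower. Each of the 19 called members changed at least 2-fold. The median log2 fold change of the members was 0.06, with quartiles of −0.50 and 0.74, against 0.07 for all genes tested and −0.00 for the other genes at that level. The 3 arsenite libraries lay entirely above the 3 controls for 29 members and entirely below them for 29, which is 34.9% of members, against 41.6% of all genes tested and 47.6% of the other genes at that level. A log2 fold change of under 0.5 in either direction was found for 66 members.

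These counts describe the members and are no support for a direction. Of the 19 called members 6 of the rises reached 10 CPM in the arsenite group only and 4 of the falls in the control group only, and 9 reached it in both groups. Over all members, 136 were at that level in both groups, 18 with arsenite only and 12 in controls only. With the replicate number as a block 20 members rose and 21 fell, against 13.4% and 12.6% of all genes. These included the 11 and 8 called without it. After removal of trends with transcript length and GC content 7 rose and 14 fell, against 8.91% and 8.50% of all genes, and with scaling by library size alone 8 rose and 10 fell, against 7.39% and 8.50% of all genes. Zfp292, Zfp239 and Zfp277 kept their calls whichever library was left out, and each of the other 16 lost its call in at least 1 such fit. Fits with a library left out hold fewer libraries, so a lost call need not mean a smaller change.

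Control replicates 1 and 2 were each needed for the calls of 11 of the 19 members, control replicate 3 for 15 and arsenite replicates 1, 2 and 3 for 16, 4 and 12. Zfp932, Zfp954, Zfp772 and Zfp101 were the 4 that lost their calls without arsenite replicate 2. Among the rises, the highest edgeR adjusted p over these fits was 0.118 for Zfp58, 0.0768 for Zfp69, 0.109 for Zfp772, 0.142 for Zfp750, 0.1 for Zfp703, 0.103 for Zfp951 and for Zfp800, 0.170 for Zfp932 and 0.164 for Zfp954 and for Zfp101. Among the falls it was 0.128 for Zfp974, 0.136 for Zfp446, 0.0894 for Zfp143, 0.135 for Zfp7 and 0.134 for Zfp1. With scaling by library size alone Zfp932, Zfp954, Zfp101 and Zfp974 lost their calls (edgeR adjusted p = 0.0534, 0.0736, 0.0707 and 0.0616). With length and GC trends removed Zfp772, Zfp800, Zfp932 and Zfp101 lost theirs, the last with an edgeR adjusted p of 0.150.

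**Figure D1:**
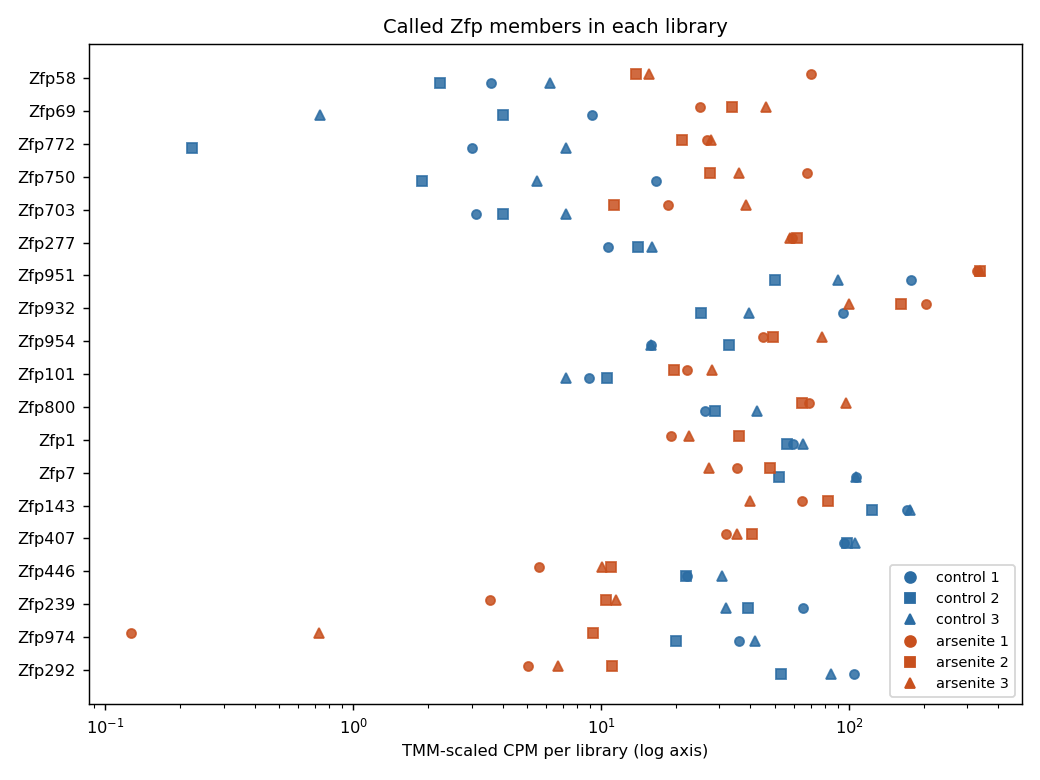
TMM-scaled CPM (log axis) of the 19 called members in each library, 1 point per library, blue for control and orange for arsenite, with a marker shape for each replicate number. In every row the 2 colours do not overlap, the widest spread within a group being that of Zfp974 with arsenite (0.127 to 9.24 CPM).

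Of the rises, 4 were in genes without a KRAB match. Zfp277, whose protein binds the Polycomb protein Bmi1 and represses the Cdkn2a locus in mouse fibroblasts (chromosome 12, 40315046 to 40445790), was at 10.7, 14.1 and 16.0 CPM in controls, given here and below in the order of replicates 1 to 3, and at 58.8, 61.4 and 58.0 CPM with arsenite. The arsenite libraries lay close together and all above the controls, and the gene rose by 2.13 ± 0.34 log2 units (SE, edgeR adjusted p = 0.00552). Zfp750, a factor of epidermal differentiation, was at 16.7, 1.90 and 5.49 CPM in controls and at 67.5, 27.4 and 36.1 CPM with arsenite. In both groups replicate 1 was the highest and replicate 2 the lowest, without overlap, and the log2 fold change was 2.44 ± 0.69 (SE, edgeR adjusted p = 0.0363).

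Zfp703, a transcriptional corepressor amplified in some human breast cancers, was at 3.13, 4.02 and 7.20 CPM in controls and at 18.6, 11.3 and 38.3 CPM with arsenite. The groups did not overlap, arsenite replicate 3 was the highest, and the gene rose by 2.24 ± 0.58 log2 units (SE, edgeR adjusted p = 0.0279). Exons of a gene on the opposite strand covered 13.5% of its exonic bases. Zfp800, chosen after its values were seen, rose from 32.4 ± 8.77 to 76.9 ± 17.9 CPM (SD, n = 3 per group, edgeR adjusted p = 0.0326). Its call was lost after removal of length and GC trends (edgeR adjusted p = 0.112).

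The other 7 rises were in KRAB genes. Zfp58, on chromosome 13 from 67490167 to 67500522, was at 3.61, 2.23 and 6.22 CPM in controls and at 70.3, 13.8 and 15.6 CPM with arsenite. Arsenite replicate 1 stood far above the other two, which were still above every control, and the log2 fold change was 3.05 ± 0.71 (SE, edgeR adjusted p = 0.0192). Of its windows of 100 transcript bases 49.1% also occurred in transcripts of other genes, so reads of Zfp58 and of those genes may not be told apart. Exons of Gm26965 on the same strand covered 50.2% of the exonic bases of Zfp58.

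Zfp69, a KRAB gene linked to diabetes in obese mice, was at 9.15, 4.02 and 0.732 CPM in controls and at 25.1, 33.7 and 46.4 CPM with arsenite. Within the controls replicate 1 was the highest and within the arsenite libraries it was the lowest, without overlap, and the log2 fold change was 2.91 ± 0.71 (SE, edgeR adjusted p = 0.0224). Zfp772 was at 3.01, 0.223 and 7.20 CPM in controls and at 26.6, 21.1 and 27.7 CPM with arsenite, where control replicate 2 was under the level of 3 counts. It rose by 2.85 ± 0.82 log2 units (SE, edgeR adjusted p = 0.0392), and without the length and GC trends its adjusted p was 0.0513.

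Zfp951 had the highest level per kb of transcript of the called members, 73.5 CPM per kb. It was at 177, 50.0 and 89.9 CPM in controls and at 329, 337 and 337 CPM with arsenite. The arsenite libraries were nearly equal and the controls spread widely, with replicate 2 the lowest, and the log2 fold change was 1.66 ± 0.41 (SE, edgeR adjusted p = 0.0240). Zfp932 was at 94.5, 25.3 and 39.6 CPM in controls and at 205, 162 and 100 CPM with arsenite. Its groups came close, at 94.5 and 100 CPM, and its rise of 1.55 ± 0.48 log2 units (SE, edgeR adjusted p = 0.0476) was no longer called without length and GC trends (edgeR adjusted p = 0.0662), while 26.9% of its windows were shared with other genes. Zfp954 and Zfp101, chosen after their values were seen, rose by 1.41 ± 0.41 and 1.38 ± 0.42 log2 units (SE, edgeR adjusted p = 0.0400 and 0.0452). Zfp101 lost its call in each of the 6 fits with a library left out.

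Of the falls, 5 were in genes without a KRAB match. Zfp292, a long protein of 14 fingers (chromosome 4, 34803110 to 34882983), was at 105, 53.2 and 84.5 CPM in controls and at 5.09, 11.1 and 6.72 CPM with arsenite. Every arsenite library was far below every control, and the gene fell by 3.40 ± 0.43 log2 units (SE, edgeR adjusted p = 0.00416), the largest fall of any member. Zfp239, known as Mok2 (chromosome 6, 117862024 to 117872766), was at 65.0, 39.2 and 32.0 CPM in controls and at 3.56, 10.5 and 11.5 CPM with arsenite. Replicate 1 was the highest control and the lowest arsenite library, and the gene fell by 2.41 ± 0.51 log2 units (SE, edgeR adjusted p = 0.0135).

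Zfp407, which supports insulin-stimulated glucose uptake in mouse adipocytes, was at 94.9, 97.9 and 106 CPM in controls and at 31.8, 40.5 and 35.3 CPM with arsenite. The libraries of each group lay close together and did not overlap, and the gene fell by 1.47 ± 0.29 log2 units (SE, edgeR adjusted p = 0.0109). Its call was lost in the fits that left out the third control or the first arsenite library, at an edgeR adjusted p of up to 0.0555. Zfp446 fell from 25 ± 5.00 to 8.87 ± 2.87 CPM (SD, n = 3 per group, edgeR adjusted p = 0.0419).

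The 3 falls in KRAB genes were those of Zfp974, Zfp7 and Zfp1. Zfp974 was at 36.1, 20.1 and 41.7 CPM in controls and at 0.127, 9.24 and 0.730 CPM with arsenite. Arsenite replicate 2 stood well above the other two, of which replicate 1 was under the level of 3 counts, and the log2 fold change was −3.25 ± 1.01 (SE, edgeR adjusted p = 0.0493). With DESeq2 this fall was not called (adjusted p = 0.0666). Zfp7 was at 107, 52.3 and 107 CPM in controls and at 35.2, 48.0 and 27.3 CPM with arsenite, so that replicate 2 of both groups came close, and it fell by 1.27 ± 0.38 log2 units (SE, edgeR adjusted p = 0.0432). Zfp1 was at 59.2, 56.4 and 65.4 CPM in controls and at 19.2, 35.8 and 22.6 CPM with arsenite, without overlap, and fell by 1.22 ± 0.35 log2 units (SE, edgeR adjusted p = 0.0375).

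The remaining fall was in Zfp143, one of 12 members listed as activators or partners of chromatin complexes. Zfp143 activates small nuclear RNA genes and many other promoters (chromosome 7, 110061689 to 110095396). It was at 171, 124 and 176 CPM in controls and at 64.7, 82.2 and 39.9 CPM with arsenite, without overlap, and fell by 1.33 ± 0.34 log2 units (SE, edgeR adjusted p = 0.0252). Of the 12 members 0 rose and this 1 fell, against 9.43% and 7.26% of all genes tested. Their median log2 fold change was −0.74, between −0.93 and −0.54 with a library left out. For 6 of the 12 every arsenite library lay below every control, as for 19.7% of all genes tested, and for 1, Zfp592, above. With the replicate block 5 of the 12 fell and 0 rose, where 12.6% of all genes fell. DESeq2 called 4 of the 12 and limma-voom 3. Of other genes at 10 CPM or more these tools called 33.9% and 27.1% in either direction, and 16.8% and 12.8% lower.

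Among those that did not pass, Zfp410, an activator of the remodeller gene Chd4, was at 116, 136 and 97.6 CPM in controls and at 50.9, 83.2 and 30.7 CPM with arsenite. Zfp410 thus lay lower in every arsenite library (log2 fold change −1.09 ± 0.38, SE, edgeR adjusted p = 0.0708, and 0.0160 with the block). Chd4 itself was at 45.9 ± 4.48 and 49.9 ± 14.5 CPM (SD, n = 3 per group, edgeR adjusted p = 0.828). Zfp644, which with Wiz brings the histone methyltransferases Ehmt1 and Ehmt2 to chromatin, was at 184, 114 and 175 CPM in controls and at 90.9, 89.0 and 53.7 CPM with arsenite. Its groups did not overlap (log2 fold change −1.02 ± 0.33, SE, edgeR adjusted p = 0.0554, and 0.0364 with the block).

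Zfp335, found in complexes that methylate histone H3 at lysine 4, and Zfp217, a partner of the CoREST corepressor in human cells, had log2 fold changes of −1.0 ± 0.35 and −0.95 ± 0.39 (SE, edgeR adjusted p = 0.0716 and 0.116). Both lay lower in every arsenite library, and with the block both passed (edgeR adjusted p = 0.0445 and 0.0328). Exons of other genes on the opposite strand covered 28.3% of the exonic bases of Zfp335. Zfp281, a regulator of pluripotency genes in embryonic stem cells, was at 279.8 ± 82.1 CPM in controls and at 176 ± 35.3 CPM with arsenite (SD, n = 3 per group, edgeR adjusted p = 0.153), also without overlap.

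Zfp148, which binds GC-rich promoters, and Zfp296, a partner of Klf4 in reprogramming, had overlapping groups, with log2 fold changes of −0.21 ± 0.33 and −0.81 ± 0.52 (SE, edgeR adjusted p = 0.691 and 0.294). Zfp592 and Zfp532, which form a complex with the reader Zmynd8, had log2 fold changes of 0.59 ± 0.29 and 0.64 ± 0.37 (SE, edgeR adjusted p = 0.170 and 0.249). Zfp131, a BTB-domain factor, and Zfp706, which helps embryonic stem cells leave self-renewal, had log2 fold changes of −0.39 ± 0.34 and 0.06 ± 0.31 (SE, edgeR adjusted p = 0.450 and 0.906), with overlapping groups for both.

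**Figure D2:**
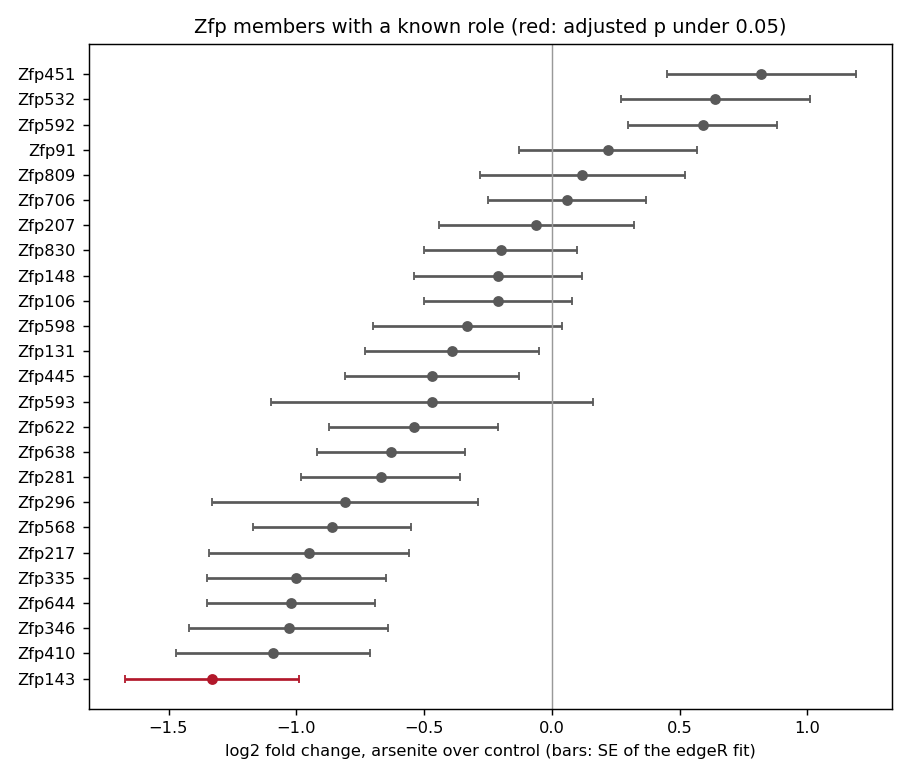
Log2 fold change of the 25 members with a listed role, arsenite over control, with bars of 1 SE from the edgeR fit and red for an adjusted p under 0.05. Zfp143 is the single red point, at −1.33, and Zfp451 is the highest, at 0.82.

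Of 10 members with roles in RNA, ribosomes, ubiquitin or SUMO and mitosis 0 rose and 0 fell by edgeR, with 2 at an unadjusted p under 0.05, 1 called by DESeq2 and 0 by limma-voom, and their median log2 fold change was −0.27. Zfp598, the ligase that marks collided ribosomes with ubiquitin, was at 50.4 ± 3.92 and 40.2 ± 15.6 CPM in control and arsenite libraries (SD, n = 3 per group, edgeR adjusted p = 0.562). Zfp622 and Zfp593, whose yeast relatives act late in assembly of the large ribosomal subunit, had log2 fold changes of −0.54 ± 0.33 and −0.47 ± 0.63 (SE, edgeR adjusted p = 0.272 and 0.632). Exons of a gene on the opposite strand covered 77.9% of the exonic bases of Zfp593.

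Zfp346, which binds double-stranded RNA, was at 50.7, 61.2 and 45.0 CPM in controls and at 19.3, 39.4 and 18.1 CPM with arsenite. It was the 1 gene of this list whose groups did not overlap, and it passed with the block (edgeR adjusted p = 0.0896 without and 0.0291 with it). Zfp451, a SUMO ligase, was at 112, 57.6 and 91.5 CPM in controls and at 141, 101 and 219 CPM with arsenite. Its groups overlapped, since control replicate 1 lay above arsenite replicate 2, and the log2 fold change was 0.82 ± 0.37 (SE, edgeR adjusted p = 0.144).

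The splicing factor Zfp830, the spindle protein Zfp207, the RNA-binding protein Zfp106, the ubiquitin ligase Zfp91 and Zfp638, which in human cells brings the HUSH complex to unintegrated retroviral DNA, had log2 fold changes of −0.20, −0.06, −0.21, 0.22 and −0.63. Their groups overlapped, and their edgeR adjusted p was 0.675, 0.930, 0.646, 0.694 and 0.154.

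The 3 KRAB genes listed for a known silencing role did not pass by edgeR or limma-voom, and DESeq2 called 1, as many as had an unadjusted edgeR p under 0.05. Zfp809, which silences retroviral DNA in mouse embryonic stem cells, was at 29.3, 45.9 and 22.4 CPM in controls and at 22.5, 46.1 and 37.7 CPM with arsenite, with overlapping groups (log2 fold change 0.12 ± 0.40, SE, edgeR adjusted p = 0.857). Zfp445, a guardian of imprints, was at 103 ± 34.4 and 74.3 ± 15.7 CPM (SD, n = 3 per group, edgeR adjusted p = 0.351). Zfp568, which silences a placental transcript of Igf2, was at 101, 86.8 and 115 CPM in controls and at 49.9, 43.7 and 73.3 CPM with arsenite. Every arsenite library of Zfp568 was below every control (log2 fold change −0.86 ± 0.31, SE, edgeR adjusted p = 0.0825), and with the block it passed (edgeR adjusted p = 0.0349).

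Of the cofactors that KRAB proteins and related silencers use, 32 of 33 listed genes were tested, with a median log2 fold change of −0.13. Of these 4 rose and 4 fell, which is 25% of them, against 16.7% of all genes tested and 23.3% of other genes at 10 CPM or more. Trim28, the scaffold that KRAB domains bind, was at 242, 241 and 264 CPM in controls and at 130.1, 133 and 197 CPM with arsenite, lower in every arsenite library but not past the test (edgeR adjusted p = 0.108). Setdb1 was at 89.9 ± 21.2 and 112 ± 48.5 CPM (SD, n = 3 per group, edgeR adjusted p = 0.583). The heterochromatin protein gene Cbx1, the deacetylase Hdac2, the SUMO gene Sumo3 and Uhrf1, which guides DNA methylation, were the 4 that rose, while Sumo2, the methyltransferases Ehmt1 and Ehmt2 and Pphln1, of the HUSH complex, fell. Ehmt1 fell from 92.4 ± 6.96 to 34.0 ± 7.12 CPM and Uhrf1 rose from 42.6 ± 2.34 to 117 ± 27.9 CPM (SD, n = 3 per group, edgeR adjusted p = 0.0139 and 0.0133). Each of these 8 lost its call in at least 1 fit with a library left out, Ehmt1 without control replicate 3 (edgeR adjusted p = 0.0550).

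Of the 106 KRAB members 7 rose and 3 fell, with a median log2 fold change of 0.28, and of the 60 without a KRAB match 4 rose and 5 fell, with a median of −0.27. With the replicate block 16 KRAB members rose and 7 fell, and 4 of the others rose and 14 fell. Of all genes tested 13.4% rose and 12.6% fell with the block, and 9.43% and 7.26% without it. Whether KRAB members and the others differ in their response was not tested. The KRAB median moved with single libraries, to 0.06 without control replicate 2 and to 0.62 without control replicate 1. It was 0.38 with the block and −0.02 once length and GC trends were removed, whereas the median of the other members was −0.26 in both of these fits. Transcripts of KRAB members were poorer in G and C, with a median of 40.0% against 48.6%. Within KRAB members the 72 whose GC content was under the median of all members, 41.6%, had a median log2 fold change of 0.42, and the other 34 had −0.34. The same split of members without a KRAB match gave −0.28 for the 11 under that median and −0.27 for the other 49. The part of GC content in these medians was not tested.

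Control replicate 2 was the lowest library for 61 of the 106 KRAB members. There the median deviation of a KRAB member from its own mean over the libraries was −0.75 on the scale log2(CPM + 1), against 0.29 and −0.08 in the other two controls and 0.37, 0.22 and 0.00 with arsenite. In that library members without a KRAB match deviated by 0.03 and other genes at this level by −0.05. KRAB members took 0.896%, 0.477% and 0.676% of counts in controls and 0.888%, 0.864% and 0.637% with arsenite, with overlapping groups. Members without a KRAB match took 0.683%, 0.644% and 0.710% in controls and 0.557%, 0.534% and 0.637% with arsenite. As shares of column totals, each arsenite library was below each control, the closest being control replicate 2 (0.644%) and arsenite replicate 3 (0.637%). The TMM factors of these libraries were 1.148 and 0.8857, so with TMM scaling their order is reversed and the groups overlap. All members together took 1.36 ± 0.231% and 1.37 ± 0.0889% of counts (SD, n = 3 per group).

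**Figure D3:**
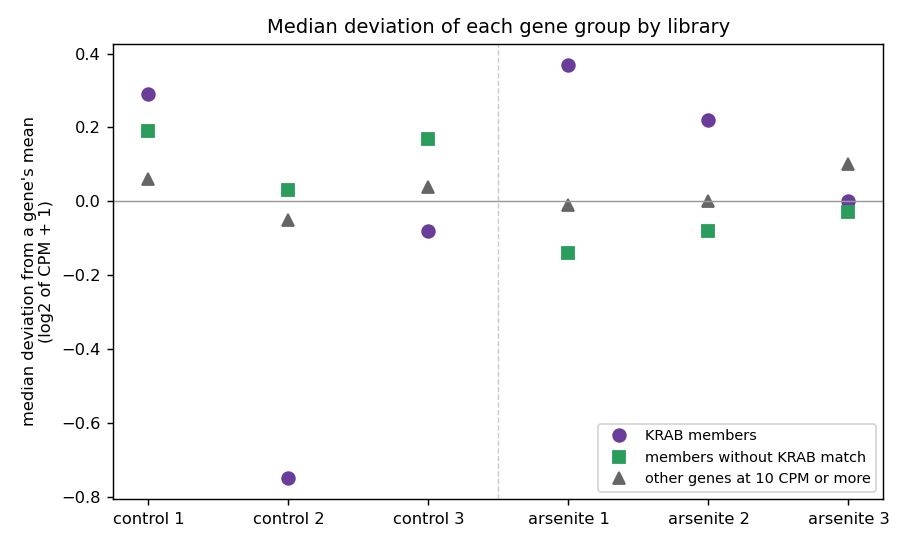
Median deviation from each gene's mean over the 6 libraries, on the scale log2(CPM + 1), for KRAB members (purple circles), members without a KRAB match (green squares) and other genes at 10 CPM or more (grey triangles) in each library. The KRAB point of control replicate 2, at −0.75, stands apart from the other points, which lie between −0.14 and 0.37.

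Levels differed widely among members. The median of the members' mean levels was 39.6 CPM, 38 members were above 100 CPM and 45 were at 10 to 20 CPM. Zfp706, Zfp367, Zfp936, Zfp655, Zfp131 and Zfp982 took the most counts, 28.0% of those of all members. Zfp706 was at 1106, 743 and 1231 CPM in controls and at 1034, 871 and 1314 CPM with arsenite. Replicate 2 was the lowest and replicate 3 the highest in both groups of Zfp706, and the groups overlapped. Per kb of transcript, Zfp982 was highest with a mean of 249 CPM per kb, then Zfp706 with 235, and Zfp846, chosen after its values were seen, was lowest with 1.43.

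Zfp367 was at 622, 375 and 732 CPM in controls and at 912, 269 and 1737 CPM with arsenite. Its lowest and its highest value were both in arsenite libraries (edgeR adjusted p = 0.351). The KRAB gene Zfp982 was at 399, 78.6 and 124 CPM in controls and at 559, 896 and 172 CPM with arsenite, with overlap, and its log2 fold change was 1.43 ± 0.65 (SE, edgeR adjusted p = 0.145). Zfp936 and Zfp655, also KRAB genes, had log2 fold changes of 0.07 ± 0.35 and 0.69 ± 0.35 (SE, edgeR adjusted p = 0.914 and 0.186), and for Zfp655 every arsenite library was above every control.

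The members with the smallest changes at 20 CPM or more were Zfp513, Zfp141, Zfp142 and Zfp97, with log2 fold changes of 0.00, 0.01, 0.02 and −0.02. Zfp142 was at 37.8, 60.6 and 39.8 CPM in controls and at 42.1, 39.1 and 58.6 CPM with arsenite, so that the groups covered the same range. Zfp513 was at 60.0, 54.1 and 58.9 CPM in controls and at 43.9, 29.9 and 99.7 CPM with arsenite, where equal means came from arsenite libraries on both sides of the controls. Just inside the level threshold, mean levels were 10 CPM for Zfp947, 10.4 CPM for Zfp825 and 10.7 CPM for Zfp593, and just outside they were 9.72 CPM for Zfp991, 9.50 CPM for Zfp111 and 9.31 CPM for Zfp934.

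**Figure D4:**
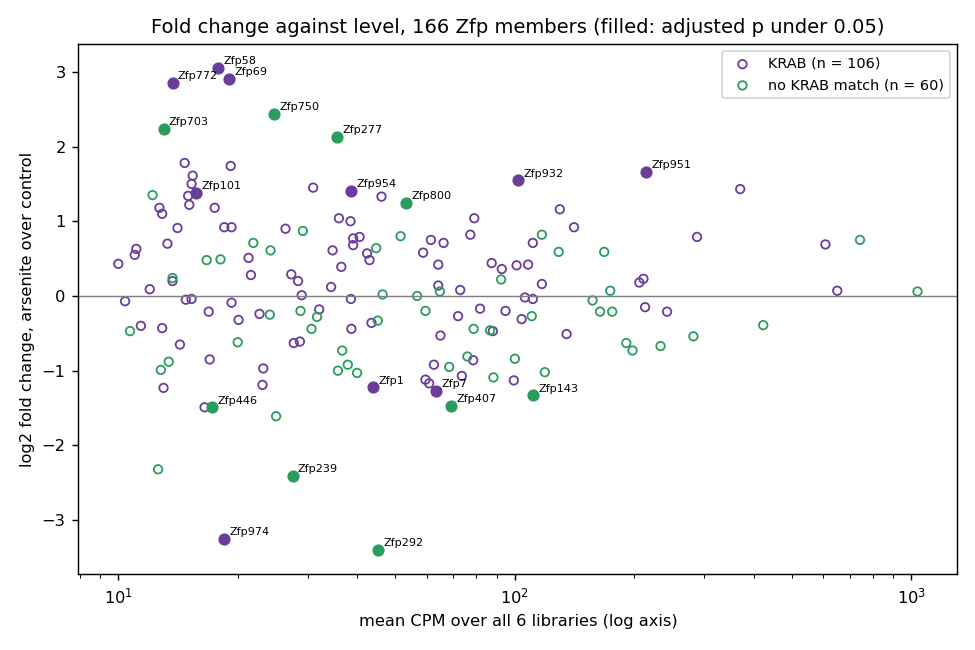
Log2 fold change, arsenite over control, against the mean CPM over all 6 libraries (log axis) for the 166 members, purple for KRAB members and green for the others, filled where the adjusted p was under 0.05. The 19 filled points run from −3.40 (Zfp292) to 3.05 (Zfp58), and the member with the most counts, Zfp706 at 1036 CPM, lies at 0.06.

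Many members lie beside each other, as KRAB genes spread by local duplication. Taking neighbours within 500 kb, 69 members formed 12 runs of at least 3, and 97 stood alone or in pairs. The longest run held 16 KRAB members on chromosome 17 (21008941 to 22456689), of which 12 had a log2 fold change above 0 (median 0.52) and 0 were called by edgeR, DESeq2 or limma-voom, with 1 at an unadjusted edgeR p under 0.05. A second run on that chromosome (32765496 to 33394637), of Zfp871, Zfp472, Zfp563, Zfp81 and Zfp101, had log2 fold changes of 0.09 to 1.38, and of these Zfp101 was called. A run of 6 on chromosome 4 (147443114 to 147849126) that holds Zfp982 had a median of 0.98, with 0 called by edgeR or DESeq2, 1 by limma-voom, 2 by edgeR with the block and 2 at an unadjusted edgeR p under 0.05. The run of 6 on chromosome 13 that holds Zfp58 ranged from −1.49 to 3.05. The run of 9 on chromosome 7 (29768552 to 30107622) that holds Zfp568 had a median of −0.05. Genes of a run can resemble each other in sequence, so their values were not taken as independent, and the runs were not tested. Dependence within a run was not measured. Of all genes tested 16.7% were called by edgeR.

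**Figure D5:**
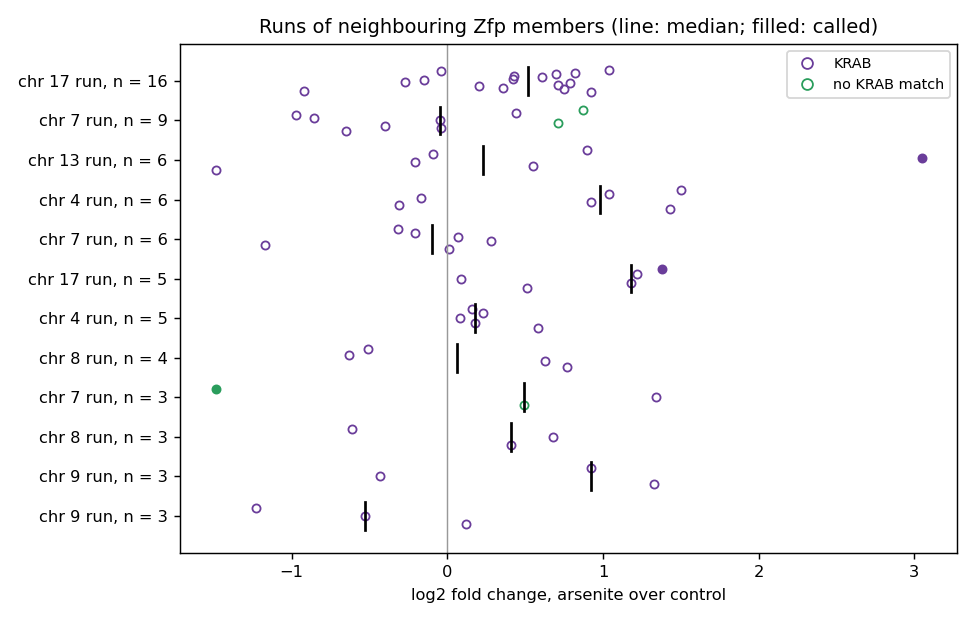
Log2 fold change, arsenite over control, of each member in the 12 runs of neighbouring members, 1 row per run, purple for KRAB members and green for the others, with a black line at the run's median and filled points where the adjusted p was under 0.05. Zfp58 stands at 3.05, away from the rest of its chromosome 13 run, whose next highest member is under 1.

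Shared sequence limits single values. Of the 166 members 14 had at least 20% of their 100-base windows in transcripts of other genes, among them Zfp708 (100%), Zfp935 (99.3%), Zfp97 (66.0%) and the called Zfp58 and Zfp932. Of these 14 members 2 rose and 0 fell, against 9.43% and 7.26% of all genes tested. This is 14.3% called, where 11.4% of all members and 16.7% of all genes tested were called. Annotated exons of other genes covered at least 20% of the exonic bases of 9 members, 1 of them called, Zfp58. Exons on the same strand covered 50.2% of Zfp58, 96.4% of Zfp708 and 100% of Zfp935, so shared windows need not be copies elsewhere. They covered 0% of Zfp97 and of Zfp932. Whether the counting used strand is not stated in the labels or file headers, so reads from opposite strands of overlapping genes cannot be told apart.

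Other finger families were read in the same fit. Of 21 Zbtb genes at 10 CPM or more, which join the fingers to a BTB domain, 0 rose and 1 fell, with a median log2 fold change of −0.06. Of all genes tested 9.43% rose and 7.26% fell, and of other genes at that level 13.0% and 10.3%. The 1 Zbtb gene that fell was Zbtb17, a partner of Myc, from 33.4 ± 6.01 to 7.68 ± 1.06 CPM (SD, n = 3 per group, edgeR adjusted p = 0.00887). Of 11 Zscan and Zkscan genes, which carry a SCAN domain and from which the Zscan4 copies were left out, Zkscan6 rose and Zscan26 fell (edgeR adjusted p = 0.00929 and 0.0455). These calls are 18.2% of the 11 genes, against 16.7% of all genes tested. With a library left out the edgeR adjusted p of Zscan26 reached 0.137. A difference between these families and the Zfp members was not tested.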

How the data were processed

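The authors deposited raw read counts, whole numbers for each gene symbol, in a table with a column for each of the 6 libraries. In the submitters' processing notes the genome build is mm10 and the tools are featureCounts 1.6.2, StringTie 2.1.4, STAR and, for DESeq2, version 1.30.1, with no role given. Annotation, strand setting and STAR version: not given in the sources used here. The labels' protocols describe PCR amplification of cDNA and mention no molecular identifiers, so the floor of 3 counts (0.352 to 0.387 CPM) covers counting error only. In 11 rows the symbol had become a date. These rows, 0.0432% to 0.0818% of a library's counts, were left out.

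The whole table went through edgeR 4.0.16 under R 4.3.3 (TMM, filterByExpr with its defaults, quasi-likelihood F-test, two-sided, no covariate, Benjamini-Hochberg adjustment over 12582 genes, threshold 0.05), tested before on simulated data. The biological coefficient of variation was 0.495. All 166 members passed the filter. Printed CPM are TMM-scaled, apart from means over all 6 libraries, which use column totals as the member rule does. Same-numbered libraries had correlated deviations from group means across genes (0.189, 0.221 and 0.178, against −0.164 to −0.0238 for other pairs). Deviations within a group cancel out, so the values of other pairs are tied to these and are no separate contrast. The main fit did not use the shared numbers. They were taken as pairs in the fits with the replicate block, without a label that says what they share. The replicate block was an alternative. Others were RLE or library-size scaling, 2 other filters, DESeq2 1.42.0, limma-voom (limma 3.58.1), offsets that remove trends with transcript length and GC content, leaving out the 20 most abundant genes or each library, and member thresholds of 5 and 20 CPM.

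Lengths, GC content and translations came from GENCODE M21 transcripts and gene positions and promoter windows from RefSeq GRCm38.p6. KRAB domains were found with HMMER 3.4, by a profile of 41 residues built from 172 windows of these translations (E-value at most 1e-05), and fingers by a pattern of cysteines and histidines. Named genes were the 8 largest called rises and 8 largest called falls, the 6 members with the most counts, the 3 on either side of the level threshold, the 4 flattest at 20 CPM or more and the members with a listed role. Members, lists, motifs and this rule were chosen with earlier results of these data known. One gene of the cofactor list is not reported here and was left out of its counts.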

Additional observations from a re-analysis of the deposited data

How the results depend on the processing

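Among the 50 named members, 0 of the called ones changed direction under any alternative or with any library left out. The groups of each called member did not overlap, so such a reversal was hardly possible. Its absence is therefore no support for the calls. The count of rises was 11 and that of falls 8. It became 17 and 17 with DESeq2, which called 13.6% of all genes higher and 12.5% lower. It became 7 and 14 with length and GC trends removed, 20 and 21 with the replicate block, and 15 and 26 with both. With both, 13.3% of all genes were called higher and 14.1% lower. Falls numbered 13 with limma-voom, which called 8.63% of all genes lower, and rises 6 at a member threshold of 20 CPM. With the numbers read as pairs, the block kept all 11 and 8 calls. Leaving out control replicates 1, 2 and 3 in turn gave 6, 3 and 2 rises and 3, 5 and 2 falls. Leaving out arsenite replicates 1, 2 and 3 gave 1, 8 and 4 rises and 2, 15 and 5 falls. Of all genes tested, 16.7% were called with every library kept. Their share was 8.05%, 8.27% and 3.03% without control replicates 1, 2 and 3. It was 3.79%, 15.2% and 11.2% without arsenite replicates 1, 2 and 3. These fits hold fewer libraries. Over them rises ranged from 1 to 8, falls from 2 to 15 and the median log2 fold change of the members from −0.16 to 0.25. With library-size scaling alone the median of all genes moved from 0.07 to −0.05, and calls were 8 higher and 10 lower.

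The changes of sign below were in named members without a call, and their cause was not tested. Against Zfp513, Zfp141, Zfp142 and Zfp97, at 0.00, 0.01, 0.02 and −0.02, the log2 fold change of Zfp513 became −0.02 without the 20 most abundant genes, −0.05 with DESeq2 and with RLE factors, −0.21 with limma-voom, −0.04 with no count filter, −0.18 with the block and −0.16 with library-size scaling. That of Zfp141 became −0.01 with DESeq2 and RLE factors, −0.35 with trends removed, −0.38 with trends removed and the block, −0.03 with the block alone and −0.06 with library-size scaling. That of Zfp142 became −0.01 without the 20 genes, −0.03 with DESeq2 and RLE factors, −0.02 with no filter and −0.14 with library-size scaling. That of Zfp97 became 0.07 with limma-voom, 0.06 with the block and 0.03 with the table filtered at 10 CPM. With trends removed Zfp598 stood at 0.18, Zfp706 at −0.17, Zfp809 at −0.06 and Zfp936 at −0.27, and with the block too the last 3 stood at −0.19, −0.08 and −0.29. With library-size scaling they stood at −0.06, −0.01 and −0.04. Zfp825 stood at 0.40 with limma-voom and 0.36 with the block. With a library left out Zfp141 ranged from −0.35 to 0.27, Zfp142 from −0.18 to 0.26, Zfp148 from −0.43 to 0.04, Zfp207 from −0.56 to 0.26, Zfp513 from −0.64 to 0.21, Zfp706 from −0.12 to 0.13, Zfp809 from −0.22 to 0.45, Zfp825 from −0.54 to 1.22, Zfp91 from −0.05 to 0.55, Zfp936 from −0.22 to 0.20, Zfp947 from −0.17 to 0.82 and Zfp97 from −0.30 to 0.25. Of 800 recomputed values of 50 named members, 650 kept direction and side of the threshold, 60 lost and 29 gained the call, and 61 changed sign.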
